A study of Mus musculus with 8 samples.

Results

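The cyclin-dependent kinase inhibitors examined here were Cdkn1a, Cdkn1b and Cdkn1c of the Cip/Kip family and Cdkn2b, Cdkn2c and Cdkn2d of the INK4 family. All probe sets annotated to these 6 genes were taken, which gave 8 of the 22690 probe sets on the array, and 7 of the 8 were bright enough to be tested. Each gene in the set is a brake on the cell cycle. Proteins of the Cip/Kip family bind complexes of a cyclin with its kinase, above all those of Cdk2, and hold them inactive. Proteins of the INK4 family bind Cdk4 and Cdk6 and keep D-type cyclins from activating them, so that the retinoblastoma protein stays unphosphorylated and E2F factors stay restrained. In the intestine the dividing cells lie in the crypts, and loss of Notch signalling is known to raise Cdkn1b and Cdkn1c in crypt progenitors, where the Notch target Hes1 represses them.

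The arrays came from small intestine of female C57/Black6 mice of the Jackson Laboratory, 6 weeks old, given an intraperitoneal injection on each of 5 days. The 4 groups received vehicle (DMSO), dexamethasone at 15 mg/kg, DBZ at 10 micromol/kg, or both drugs at these doses, called the combination below. Dexamethasone is a synthetic glucocorticoid that acts through the glucocorticoid receptor, and DBZ is a gamma-secretase inhibitor that blocks the cleavage by which Notch receptors are activated. The tissue was whole small intestine, not sorted cells, and the sources used here do not say where along the gut each segment was cut. The design named 2 mice in each group, but the 2 DBZ columns held identical values in 22684 of 22690 probe sets, and in each of the other 6 one copy was listed at 0. They were counted as 1 array, which left 7 arrays: 2 vehicle, 2 dexamethasone, 1 DBZ and 2 combination. The labels do not say that the replicates are separate animals' extracts, so p-values measure the spread between these arrays.

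The vehicle arrays stood apart from all 5 treated arrays in markers of gut region, of the wall, of T cells and of enteroendocrine cells, and this touches every comparison with vehicle below. The summed scaled signal of the 9 ileal marker genes on the array was 6909 to 7277 in vehicle and 18558 to 40756 in treated arrays. The ileal bile acid binding protein Fabp6 had signals of 0.640 and 1.22 in vehicle and of 1116 to 11866 in treated arrays. The sum of the 9 proximal markers was 26214 to 30206 in vehicle and 7971 to 16623 in treated arrays. Sums over smooth muscle markers (14 genes) were 15184 to 19904 in vehicle and 28537 to 40877 in treated arrays, and sums over fibroblast markers (15 genes) were 4748 to 8020 and 12323 to 15519. T cell markers (10 genes) summed to 1739 to 2022 in vehicle and 553 to 708 in treated arrays, and enteroendocrine markers (14 genes) to 3266 to 4448 and 2113 to 2892. Epithelial markers (16 genes) summed to 100948 to 104800 in vehicle and to 78900 to 122653 in treated arrays. The part of gut region and of these cell types in the changes of the inhibitors was not tested, and in bulk tissue fewer cells of a type and less RNA per cell cannot be told apart.

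The start regions of Cdkn1a and Cdkn1b are shown first, because Cdkn1a was read by a pair of probe sets that moved by different amounts and has 2 annotated starts, and because Cdkn1b is the textbook target of Hes1. Windows from 250 bases before to 50 after a start were taken from RefSeq on GRCm38.p6 for 5 of the 6 genes, 7 windows in all. Cdkn1a lies on chromosome 17 from 29090979 to 29100722, and its 2 starts are 2790 bases apart, at 29090979 and 29093769. The first window below is chr17:29090729-29091028, plus strand, and its capitals mark a pair of p53 core letters (CATGNNNNNNCATG) 48 bases before the start. The second is chr17:29093519-29093818, plus strand, with capitals on 2 GC boxes (GGGCGG, the letters bound by Sp1) and on 1 match to the RBPJ letters TGGGAA, which reads on the other strand and so appears reversed. The third is the Cdkn1b window chr6:134920151-134920450, plus strand, with capitals on 1 GC box and on 1 match to the Hes letters CACGCG, 172 bases before the start.
Cdkn1a upstream start: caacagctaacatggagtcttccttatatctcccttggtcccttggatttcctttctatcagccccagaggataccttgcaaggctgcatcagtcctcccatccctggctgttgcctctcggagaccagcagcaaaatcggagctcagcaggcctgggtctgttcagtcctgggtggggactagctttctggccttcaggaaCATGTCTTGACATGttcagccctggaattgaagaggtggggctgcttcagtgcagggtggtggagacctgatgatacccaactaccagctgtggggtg
Cdkn1a downstream start: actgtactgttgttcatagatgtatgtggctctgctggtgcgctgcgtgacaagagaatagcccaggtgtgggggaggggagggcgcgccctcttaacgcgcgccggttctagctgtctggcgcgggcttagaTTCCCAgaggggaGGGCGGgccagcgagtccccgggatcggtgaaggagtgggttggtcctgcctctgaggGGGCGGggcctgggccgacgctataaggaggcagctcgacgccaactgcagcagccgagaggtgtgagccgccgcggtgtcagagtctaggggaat
Cdkn1b: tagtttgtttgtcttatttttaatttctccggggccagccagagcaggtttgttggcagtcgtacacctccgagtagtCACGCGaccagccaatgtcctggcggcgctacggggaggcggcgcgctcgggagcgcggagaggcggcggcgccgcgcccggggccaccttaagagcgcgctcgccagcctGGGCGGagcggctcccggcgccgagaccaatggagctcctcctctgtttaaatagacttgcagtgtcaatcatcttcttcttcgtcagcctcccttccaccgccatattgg
Matches were counted on both strands over all 32851 windows of this length, of which 35.66% held GGGCGG, 9.269% CACGCG, 25.56% TGGGAA, 18.97% AGAACA, the half-site letters of the glucocorticoid receptor, and 0.7123% the pair of p53 core letters. The p53 letters were searched after the Cdkn1a window had been seen. AGAACA was present in 1 of the 7 windows, the upstream one of Cdkn2c. Cdkn2d held 5 GC boxes, 1 CACGCG and 1 TGGGAA, the Cdkn2c window with AGAACA held 4 GC boxes, and Cdkn2b held 1. Such matches are letters in a window and say nothing of binding in these samples.

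Cdkn1a, which encodes p21, the inhibitor induced by p53 and by many differentiation signals, rose in every treated group. Its probe set 1421679_a_at, in which the probes are shared by transcript variants of the gene, had scaled signals of 162 and 158 in vehicle, 857 and 997 after dexamethasone, 1045 after DBZ, and 834 and 794 after the combination. The vehicle arrays lay far below all 5 treated arrays. For this and the other orders of arrays given below, the share of all probe sets with the same order is not given. Among the treated arrays the combination pair was lowest, the dexamethasone pair came next and the DBZ array was highest, and the tests between these groups, given further on, did not pass. On the log2(signal + 12.3) scale, on which the fold changes below are given and which understates changes of dim probe sets, the rise was 2.44 ± 0.17 (SE, 5.43-fold) with dexamethasone, with an adjusted p of 0.000117 from limma. With DBZ it was 2.62 ± 0.20 (6.13-fold, limma adjusted p = 0.000351). With the combination it was 2.26 ± 0.17 (4.79-fold, limma adjusted p = 0.000287).

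**Figure D1:**
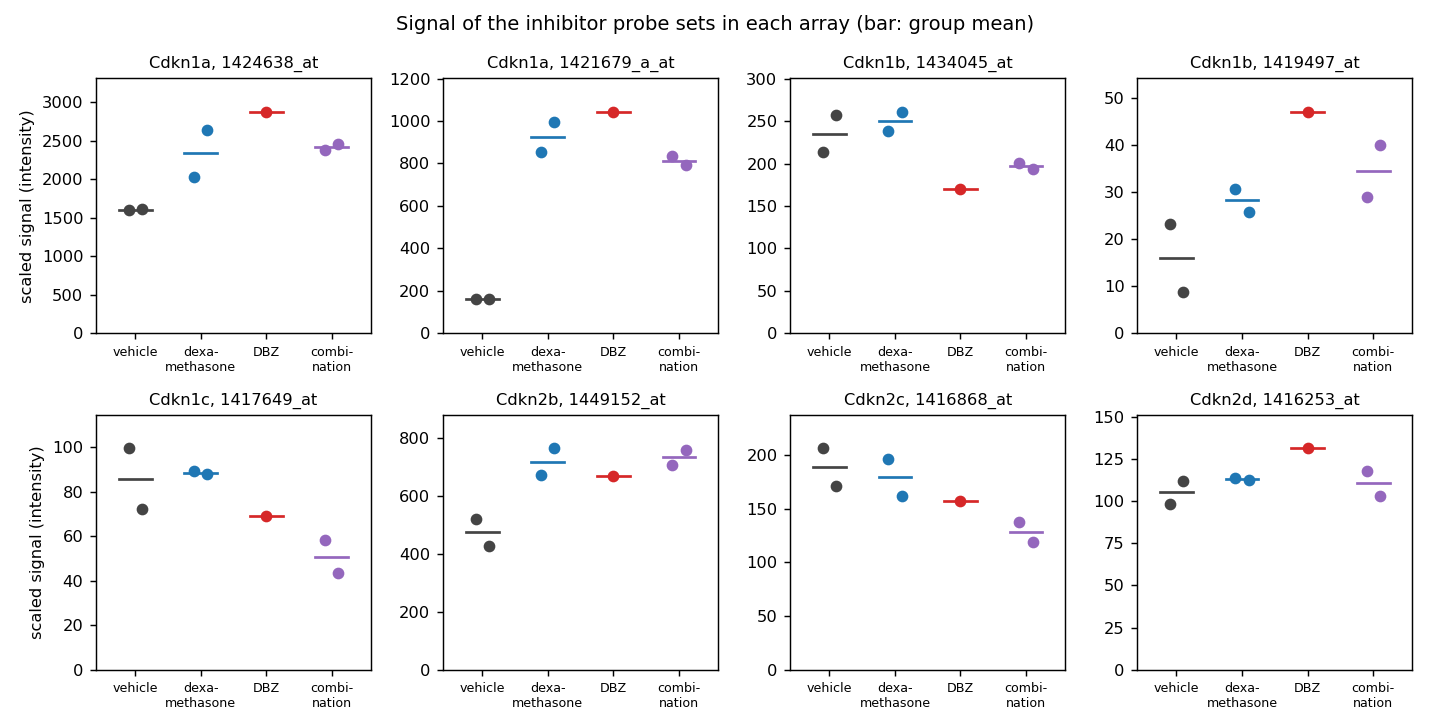
Scaled signal (intensity, linear axis from 0) of the 8 inhibitor probe sets, with 1 point for each array and a bar for the group mean, in vehicle (n = 2), dexamethasone (n = 2), DBZ (n = 1) and combination (n = 2). For Cdkn1a 1421679_a_at the vehicle points sit near 160 and the treated points between 794 and 1045, and for Cdkn2b the vehicle points also lie below every treated point. The share of all probe sets with such an order is not given.

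The other Cdkn1a probe set, 1424638_at, moved the same way by less. It read 1595 and 1615 in vehicle, 2035 and 2638 after dexamethasone, 2880 after DBZ, and 2382 and 2455 after the combination. Again no treated array fell to the vehicle level. The difference was 0.84 ± 0.22 (1.79-fold) with DBZ and passed the test, with a limma adjusted p of 0.0429. That call was lost without either vehicle array (adjusted p 0.103 and 0.0874 in limma) and without either combination array (0.0637 and 0.0636). With dexamethasone the difference was 0.53 ± 0.18 and with the combination 0.59 ± 0.18, and neither passed (limma adjusted p = 0.0838 and 0.0740).

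The disagreement between the Cdkn1a probe sets was alike in all treated arrays. The log2 difference between 1421679_a_at and 1424638_at, set relative to its vehicle mean, was 1.99 and 1.84 after dexamethasone, 1.78 after DBZ, and 1.73 and 1.62 after the combination, against 0.02 and -0.02 in the vehicle arrays. The shift was therefore larger than its spread within any group. The transcripts that each probe set reads, and which of the 2 starts they come from, were not analysed here. The DBZ array had the highest ratio of 3' to 5' control signal, 1.80 for Gapdh against 0.905 to 1.22 in the other 6 arrays and 2.17 for beta-actin against 1.22 to 1.79. The part of RNA quality in the disagreement between the probe sets, and in the other differences of the DBZ array given below, was not tested.

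Cdkn1b, which encodes p27, the Cip/Kip protein that accumulates in resting cells and is destroyed through Skp2, passed the test in none of the 6 comparisons. Its tested probe set 1434045_at read 214 and 257 in vehicle, 239 and 262 after dexamethasone, 170 (169.9) after DBZ, and 200.4 and 194 after the combination. The arrays that received DBZ, alone or in the combination, were the 3 lowest of the 7. The log2 difference from vehicle was 0.09 ± 0.19 with dexamethasone, -0.44 ± 0.23 with DBZ and -0.24 ± 0.19 with the combination, with 95% intervals of -0.34 to 0.51, -0.96 to 0.08 and -0.66 to 0.19. The limma adjusted p was 0.823, 0.265 and 0.478.

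A second Cdkn1b probe set, 1419497_at, was too dim for the test and leaned the other way. It read 23.2 and 8.82 in vehicle, 30.6 and 25.8 after dexamethasone, 47.2 after DBZ, and 29.0 and 40.1 after the combination. All 5 treated arrays lay above both vehicle arrays, at levels near the filter on mean signal of 38.8. When all 22626 probe sets were tested, its log2 difference from vehicle was 0.56 ± 0.38, 1.12 ± 0.46 and 0.76 ± 0.38 for dexamethasone, DBZ and the combination, with limma adjusted p of 0.479, 0.239 and 0.335. The pair of Cdkn1b probe sets thus disagreed in sign for DBZ and for the combination, with neither past the threshold.

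Cdkn1c encodes p57, an imprinted Cip/Kip gene expressed from the maternal allele, which glucocorticoids induce in some human cell lines. Its probe set 1417649_at read 99.4 and 72.1 in vehicle, 89.3 and 87.8 after dexamethasone, 68.9 after DBZ, and 58.2 and 43.4 after the combination. The combination arrays were the lowest of the 7, and the dexamethasone arrays lay between the vehicle arrays. The combination differed from vehicle by -0.63 ± 0.27 (log2) and from dexamethasone by -0.69 ± 0.27, with unadjusted p of 0.0408 and 0.0290 and limma adjusted p of 0.186 and 0.470. The differences from vehicle were 0.05 ± 0.27 with dexamethasone and -0.26 ± 0.33 with DBZ (limma adjusted p = 0.924 and 0.663).

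Among the INK4 genes, Cdkn2b encodes p15 and is induced by TGF-beta in human keratinocytes. Cdkn2b did not pass the test against vehicle in any treated group, and it was higher in every treated array than in either vehicle array. Its signals were 522 and 428 in vehicle, 673 and 765 after dexamethasone, 671 after DBZ, and 707 and 761 after the combination. The group means were 475 ± 66.1 (SD, n = 2) in vehicle, 719 ± 64.7 with dexamethasone and 734 ± 38.4 with the combination. The log2 differences were 0.59 ± 0.17, 0.49 ± 0.21 and 0.62 ± 0.17 for dexamethasone, DBZ and the combination, with limma adjusted p of 0.0562, 0.179 and 0.0619. Without vehicle replicate 1 the dexamethasone difference was 0.73 and passed (limma adjusted p = 0.0482).

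Cdkn2c, which encodes p18, showed its lowest signals with the combination. It read 206 and 171 in vehicle, 197 and 162 after dexamethasone, 157 after DBZ, and 137 and 119 after the combination. The vehicle and dexamethasone arrays overlapped, and the combination arrays lay below all others. The log2 difference of the combination from vehicle was -0.51 ± 0.21 and from dexamethasone -0.44 ± 0.21 (limma adjusted p = 0.174 and 0.562). For dexamethasone it was -0.07 ± 0.21 and for DBZ -0.24 ± 0.26 (limma adjusted p = 0.875 and 0.595).

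Cdkn2d, which encodes p19 of the INK4 family, had the smallest ratio of highest to lowest signal among the 7 tested probe sets. It read 98.5 and 112 in vehicle, 114 and 113 after dexamethasone, 131 after DBZ, and 118 and 103 after the combination. Both dexamethasone arrays lay just above both vehicle arrays, the combination arrays spread over that range, and the single DBZ array was the highest. The log2 difference from vehicle was 0.09 ± 0.22, 0.29 ± 0.27 and 0.06 ± 0.22 for the 3 treatments, with 95% intervals of -0.39 to 0.58, -0.30 to 0.88 and -0.42 to 0.55 (limma adjusted p = 0.829, 0.527 and 0.890).

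**Figure D2:**
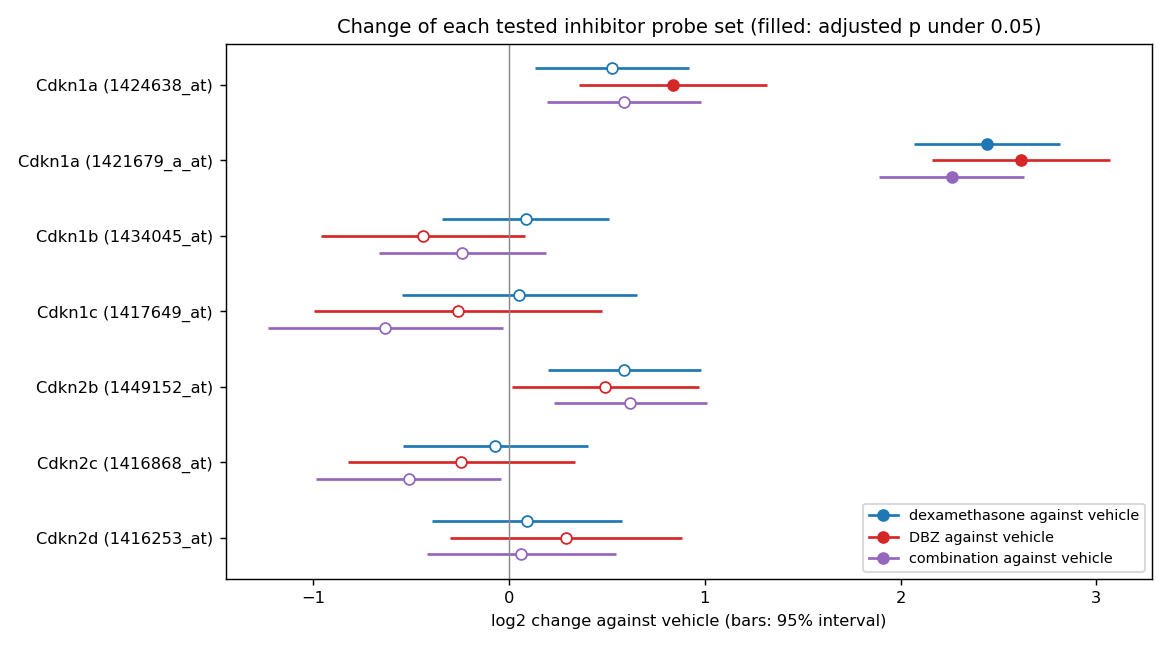
Log2 change against vehicle of the 7 tested inhibitor probe sets, for dexamethasone, DBZ and the combination, with 95% intervals from limma and filled points where the adjusted p was under 0.05. Cdkn1a 1421679_a_at lies between 2.26 and 2.62 in all 3 comparisons, and the other filled point is Cdkn1a 1424638_at with DBZ at 0.84.

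Counted over the set, 1 of the 7 tested probe sets was called with dexamethasone, where 12.0% of all 13638 tested probe sets were called. With DBZ it was 2 of 7, both of Cdkn1a, beside 8.34% of all probe sets, and with the combination 1 of 7 beside 7.44%. These shares of a set of 7 are too coarse to be set apart from the background. At an unadjusted p under 0.05 the counts were 3, 3 and 5 of 7, beside 26.9%, 26.4% and 24.2% of all tested probe sets. The median log2 difference of the 7 was 0.09, 0.29 and 0.06, beside 0.02, -0.05 and -0.04 over all tested probe sets. The 3 comparisons share the vehicle arrays, so they are not independent of each other.

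No inhibitor separated the combination from either drug alone. Against DBZ, 0 of 7 probe sets were called by limma and 0 had an unadjusted p under 0.05, beside 0.330% and 12.3% of all probe sets. Against dexamethasone, 0 of 7 were called and 1, Cdkn1c, had an unadjusted p under 0.05, beside 0.0293% and 9.36% of all probe sets. For Cdkn1a 1421679_a_at the difference of the combination was -0.36 ± 0.20 from DBZ, with a 95% interval of -0.81 to 0.10, and -0.18 ± 0.17 from dexamethasone, with an interval of -0.55 to 0.19 (limma adjusted p = 0.523 and 0.776). For Cdkn2b the differences were 0.13 ± 0.21 and 0.03 ± 0.17, with intervals of -0.35 to 0.60 and -0.36 to 0.42 (limma adjusted p = 0.861 and 0.969). The adjusted p of the 7 probe sets was 0.523 to 0.861 against DBZ and 0.470 to 0.975 against dexamethasone.

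The interaction asks whether the combination differed from the sum of the separate drug changes on the log2 scale. For Cdkn1a 1421679_a_at the combination stayed below that sum: the interaction was -2.80 ± 0.26, with a 95% interval of -3.38 to -2.21 and a limma adjusted p of 0.00127. The rise of 2.26 with the combination stood beside 2.44 and 2.62 with the separate drugs. For Cdkn1a 1424638_at the interaction was -0.78 ± 0.28 and for Cdkn2b -0.46 ± 0.28 (limma adjusted p = 0.152 and 0.385), and the other 4 lay between -0.43 and 0.12. The call stood in 1 of 7 probe sets, beside 4.0% of all tested probe sets. The interaction also holds the vehicle arrays: 8 of the 9 ileal markers had a called negative interaction and 7 of the 8 tested proximal markers a called positive one, and their part in the Cdkn1a value was not tested.

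For the lists of genes around the inhibitors, the background is the share of all 8094 tested genes that were called: 6.93% rose and 5.29% fell with dexamethasone (12.2% together), 3.93% rose and 3.88% fell with DBZ (7.81%), and 3.83% rose and 3.50% fell with the combination (7.33%). Of 15 tested cyclins, kinases and their activators, on which the inhibitors act, 1 rose and 1 fell with dexamethasone, and 1 rose and 2 fell with the combination. With DBZ 0 passed by limma at the probe sets of highest signal, and 9 had an unadjusted p under 0.05, beside 26.4% of all tested probe sets. The median log2 differences were 0.09, -0.72 and -0.35 with dexamethasone, DBZ and the combination. Ccnd2, a D-type cyclin, rose by 1.21 ± 0.24 with dexamethasone and by 0.97 ± 0.24 with the combination (limma adjusted p = 0.0119 and 0.0384), and read 0.27 ± 0.29 with DBZ. Its other 5 probe sets read 0.92 to 1.68 with dexamethasone and 0.41 to 1.51 with the combination. Cdc25a, the phosphatase that activates Cdk2, fell by 0.77 ± 0.19 and 0.76 ± 0.19 in the same comparisons (limma adjusted p = 0.0315 and 0.0436), while its other probe set differed by -0.19 and -0.21 without passing. Ccnh, a subunit of the kinase that activates other cyclin-dependent kinases, fell by 0.90 ± 0.20 with the combination (limma adjusted p = 0.0270), and its other 2 probe sets differed by -0.97, which passed, and -0.59, which did not (limma adjusted p = 0.0217 for the first). With DBZ the Ccnh probe set of highest signal differed by -0.72 without passing. Its other 2 probe sets differed there by -1.14, which passed (limma adjusted p = 0.0253), and by -0.09, which did not. The main INK4 target Cdk4 read 0.22, -0.70 and -0.28, with none past the threshold. The D-type cyclin Ccnd1 read 0.64, 0.42 and 0.17 at its probe set of highest signal, with none past the threshold, while a further Ccnd1 probe set rose by 1.21 with dexamethasone (limma adjusted p = 0.0461).

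Downstream of the inhibitors, and beside the same background of falling genes, 3 of 9 tested genes of the Rb and E2F families fell with DBZ and 2 with the combination. With dexamethasone 0 passed by limma, and 2 had an unadjusted p under 0.05, beside 26.9% of all tested probe sets. E2f8, a repressor of the E2F family that cycling cells express, fell by 1.93 ± 0.39 with DBZ and by 1.67 ± 0.32 with the combination (limma adjusted p = 0.0201 and 0.0148). Tfdp1, the partner of E2F factors on DNA, fell by 1.10 ± 0.25 and 0.94 ± 0.21 (limma adjusted p = 0.0307 and 0.0258). Rbl2, which encodes the pocket protein p130, fell by 0.86 ± 0.23 with DBZ (limma adjusted p = 0.0476), and its other probe set differed by -1.16 without passing.

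Genes of G2 phase and mitosis, whose expression follows the share of dividing cells, were lower in the DBZ array. Of 20 tested, 10 fell with DBZ, where 3.88% of all genes fell, 0 rose, and all 20 estimates were below zero, with a median of -1.34 beside -0.02 over all genes. Aurkb, a mitotic kinase, fell by 2.38 ± 0.41, the kinetochore gene Nuf2 fell by 2.35 ± 0.51, and the mitotic kinase gene Plk1 fell by 1.82 ± 0.39 (limma adjusted p = 0.0111, 0.0243 and 0.0240). The count of 10 was smaller without vehicle replicate 1, in a fit with 1 vehicle array and fewer residual degrees of freedom. The part of that array and the part of lost precision cannot be told apart. The DBZ array also had the highest 3' to 5' control ratios, and the part of RNA quality in these values was not tested. With the combination all 20 estimates were again below zero, with a median of -0.61 and 0 past the limma threshold. At an unadjusted p under 0.05 there were 10, beside 24.2% of all tested probe sets. With dexamethasone the median was 0.00, with 0 past the threshold and 0 at an unadjusted p under 0.05, beside 26.9% of all tested probe sets. The summed signal of the list was 3438 and 4655 in vehicle, 3564 and 4581 after dexamethasone, 1714 after DBZ, and 2014 and 3327 after the combination, so Cdkn1a was high both in arrays with the vehicle level of these genes and in arrays below it.

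**Figure D3:**
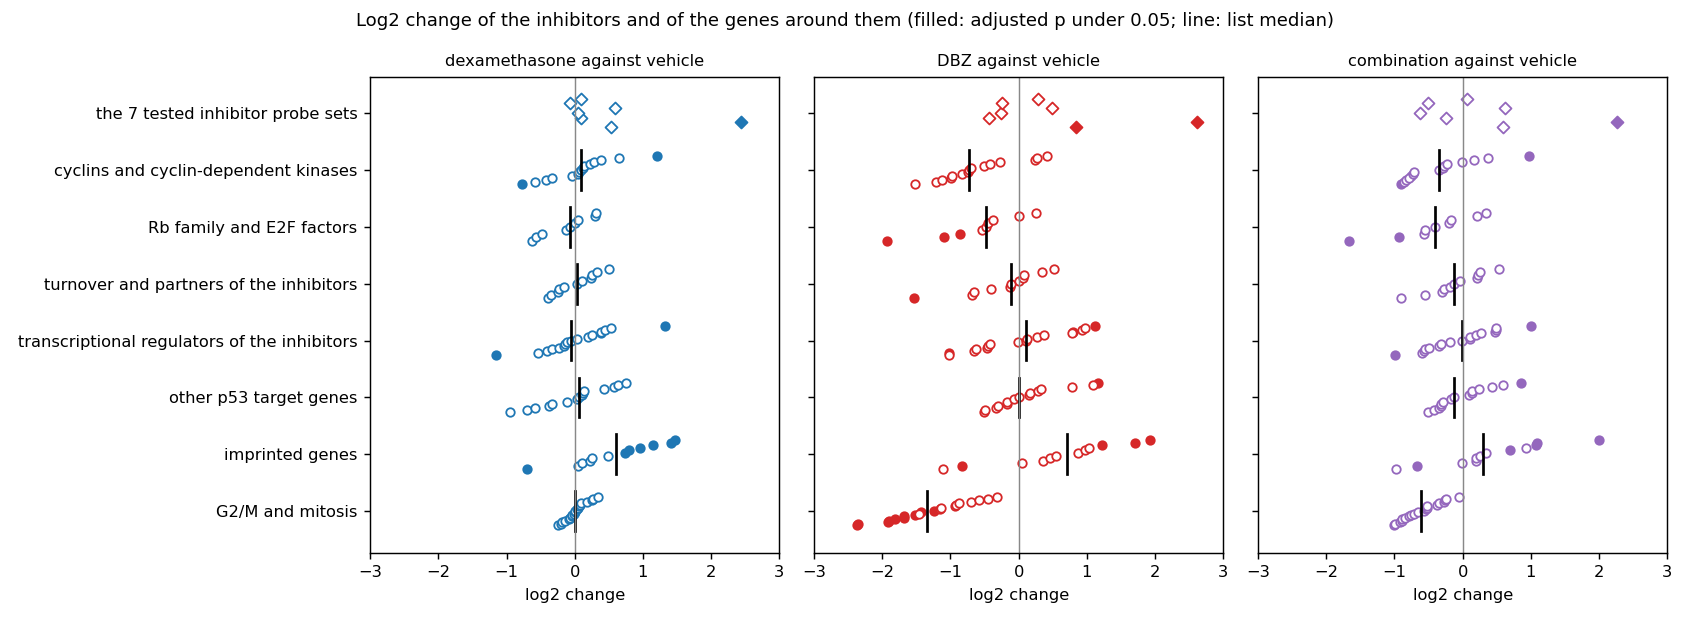
Log2 change against vehicle of the 7 tested inhibitor probe sets (diamonds) and of the tested genes in 7 lists around them (circles), in 3 panels for dexamethasone, DBZ and the combination, with filled marks for an adjusted p under 0.05 and a black line at each list's median. The G2/M and mitosis list sits at a median of 0.00, -1.34 and -0.61, and the isolated filled diamond at the right of each panel is Cdkn1a 1421679_a_at.

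Of 17 tested factors known to control the inhibitors, 1 rose and 1 fell with dexamethasone, 2 rose and 1 fell with DBZ, and 1 rose and 1 fell with the combination, beside 12.2%, 7.81% and 7.33% of all genes called in either direction. At an unadjusted p under 0.05 the counts were 3, 8 and 6 of 17, beside 26.9%, 26.4% and 24.2% of all tested probe sets. Tgfbr2, the TGF-beta receptor subunit upstream of Cdkn2b, read 179 and 171 in vehicle, 544 and 379 after dexamethasone, 394 after DBZ, and 385 and 339 after the combination. It rose by 1.32 ± 0.21, 1.12 ± 0.25 and 0.997 ± 0.21 on the log2 scale (limma adjusted p = 0.00447, 0.0292 and 0.0207). Cdx2, the homeobox factor of intestinal epithelium, fell by 1.16 ± 0.19, 1.02 ± 0.24 and 0.995 ± 0.19 (limma adjusted p = 0.00534, 0.0302 and 0.0154), while its other probe set differed by -0.33, -1.28 and -0.30. Sp1, which binds GC boxes, rose by 0.79 ± 0.19 with DBZ (limma adjusted p = 0.0342), and its other probe set differed by 0.42 without passing.

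For the factors tied to the drugs, the probe sets of highest signal did not pass. Hes1, the Notch target that represses Cdkn1b and Cdkn1c, differed by 0.19 ± 0.28, -0.66 ± 0.34 and -0.34 ± 0.28 with dexamethasone, DBZ and the combination (limma adjusted p = 0.724, 0.254 and 0.491). Klf4, an activator of Cdkn1a in differentiating epithelium, differed by 0.44 ± 0.22, 0.79 ± 0.26 and 0.49 ± 0.22, and Myc, a repressor of Cdkn1a and Cdkn2b, by -0.14 ± 0.35, -1.03 ± 0.43 and -0.55 ± 0.35 (limma adjusted p from 0.0958 to 0.846). Nr3c1, the glucocorticoid receptor, differed by -0.06 ± 0.17, -0.63 ± 0.20 and 0.27 ± 0.17 at its probe set of highest signal. A further Nr3c1 probe set passed with DBZ, at -1.19, and in the interaction, at 1.67 (limma adjusted p = 0.0415 and 0.0446), and the third did not pass. Among genes of inhibitor turnover, 1 of 11 passed, Cks2 with DBZ (-1.54 ± 0.35, limma adjusted p = 0.0295), beside 7.81% of all genes called with DBZ. A further Cks2 probe set differed by -0.16 without passing. At an unadjusted p under 0.05 there were 4 of the 11 with DBZ, beside 26.4% of all tested probe sets. Skp2, the ubiquitin ligase subunit that targets p27, read -0.16, -0.12 and -0.19.

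Cdkn1a is a classic p53 target. Of 15 other p53 target genes tested, 0 passed with dexamethasone by limma, and 1 rose with DBZ and 1 with the combination. Of all genes, 6.93%, 3.93% and 3.83% rose in these comparisons. With dexamethasone 5 of the 15 had an unadjusted p under 0.05, beside 26.9% of all tested probe sets. The list medians were 0.06, 0.01 and -0.12, beside 0.02, -0.02 and -0.05 over all genes. The gene that rose with DBZ and with the combination was Btg2, an antiproliferative factor. Btg2 read 343 and 428 in vehicle, 518 and 642 after dexamethasone, 871 after DBZ, and 691 and 722 after the combination. It rose by 1.16 ± 0.23 with DBZ and by 0.86 ± 0.19 with the combination (limma adjusted p = 0.0176 and 0.0230), and differed by 0.57 ± 0.19 with dexamethasone. Its other probe set differed by 0.66 with DBZ, which did not pass, and by 0.80 with the combination, which did (limma adjusted p = 0.115 and 0.0359). Mdm2, the ubiquitin ligase in the p53 feedback loop, differed by -0.59, -0.50 and -0.35 at one probe set and by -0.39, 0.07 and -0.02 at the other, with none past the threshold. Trp53 itself was not analysed here.

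Cdkn1c is one of a network of imprinted genes, and several of the others passed the test against vehicle, which Cdkn1c did not. Beside the background shares given above, of 12 tested imprinted genes 6 rose and 1 fell with dexamethasone, 3 rose and 1 fell with DBZ, and 4 rose and 1 fell with the combination. The gene that fell was Cd81 each time, by 0.70 ± 0.17, 0.83 ± 0.20 and 0.67 ± 0.17 (limma adjusted p = 0.0260, 0.0377 and 0.0417). Kcnq1 differed by 0.11, -1.10 and -0.98 and Slc22a18 by 0.23, 0.35 and 0.20, with none past the threshold. Igf2, a fetal growth factor from the same imprinted region, read 90.5 and 71.2 in vehicle, 181 and 331 after dexamethasone, 289 after DBZ, and 334 and 388 after the combination. It rose by 1.48 ± 0.27, 1.70 ± 0.33 and 2.01 ± 0.27 (limma adjusted p = 0.00867, 0.0176 and 0.00377). Ndn, an inhibitor of growth in neurons, rose by 1.41 ± 0.25, 1.93 ± 0.31 and 1.09 ± 0.25 (limma adjusted p = 0.00776, 0.00929 and 0.0313), with 4 further probe sets at 0.35 to 1.67, 0.52 to 1.86 and 0.47 to 1.40, and Plagl1, a zinc finger factor, by 0.95 ± 0.22 with dexamethasone and 1.07 ± 0.22 with the combination (limma adjusted p = 0.0213 and 0.0182). The fibroblast and muscle marker sums given above were higher in the same arrays, and their part in these values was not tested. Fewer imprinted genes rose without vehicle replicate 2 in each comparison, and with dexamethasone without dexamethasone replicate 1. The same held for the combination without either of its replicates. Such fits leave 1 array in a group and fewer residual degrees of freedom. The part of the array left out and the part of lost precision cannot be told apart.

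Calls in these lists were less firm than that of Cdkn1a 1421679_a_at, which passed against vehicle without each array in turn. Here each array in turn stands for each vehicle, dexamethasone and combination array. The single DBZ array was never left out, so the calls with DBZ could not be checked against it. Each such fit has fewer residual degrees of freedom, and the share of all called genes that kept their call is not given. At the probe sets of highest signal, of 11 list genes called with dexamethasone 2 kept the call without each array in turn, Tgfbr2 and Cdx2. Of 22 called with DBZ, 3 did, Btg2, Ndn and Aurkb, and of 13 called with the combination, 0 did. In the interaction 3 list genes were called, beside 3.84% of all genes. They were Ndn (-2.25 ± 0.40), Tgfbr2 (-1.44 ± 0.33) and Meg3 (-1.55 ± 0.36), with limma adjusted p of 0.0185, 0.0429 and 0.0437. Each lost its call without some array, and the further Meg3 probe sets did not pass. Between the combination and either drug, 0 genes of the 7 lists were called by limma. Of the 99 genes tested in them, 16 against DBZ and 18 against dexamethasone had an unadjusted p under 0.05, beside 12.3% and 9.36% of all tested probe sets. The smallest adjusted p there was 0.123 for Nr3c1 against DBZ, and the list medians are given for G2/M genes only: 0.65 against DBZ, with 19 of 20 estimates above zero, and -0.62 against dexamethasone, with 0 above zero.

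The genes whose pattern over the 7 arrays was most like an inhibitor's were listed by Pearson correlation of log2 values, as a description in which the points share the split between vehicle and treated arrays. For Cdkn1a 1424638_at they were Cyp7b1 (r = 0.987), Ebpl (0.985) and Taldo1 (0.985). For Cdkn1a 1421679_a_at, added after its values were seen, they were Slc5a8 (0.996), Sumo3 (0.994) and Itpr2 (0.994), and Slc5a8 is one of the ileal markers. For Cdkn2b they were Fdps (0.998), Fbxo6 (0.995) and Lamtor4 (0.993), and for Cdkn1b Cdca4 (0.978), Kif2a (0.965) and Mypop (0.962). For Cdkn1c they were Akip1 (0.978), Prkd2 (0.973) and Xrcc4 (0.964), for Cdkn2c Dbn1 (0.985), Impact (0.982) and Tmem134 (0.978), and for Cdkn2d Tmem123 (0.989), Gmeb1 (0.976) and Aplp1 (0.974). No gene stood in more than 1 of these lists.

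The size of every inhibitor's change depended on how the arrays were scaled. The vehicle arrays were deposited at a trimmed mean near 500 and the treated arrays near 250, which lowers all probe sets of the treated arrays against vehicle alike. With the signals as deposited the median of all probe sets was -0.92 with dexamethasone, -0.997 with DBZ and -0.985 with the combination, and 6, 4 and 5 of the 7 inhibitor probe sets were called. Of these, 1 in each comparison, Cdkn1a 1421679_a_at, was higher, and 5, 3 and 4 were lower. Cdkn1a 1421679_a_at still rose, by 1.49, 1.66 and 1.31, and Cdkn2b read -0.39, -0.49 and -0.36.

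**Figure D4:**
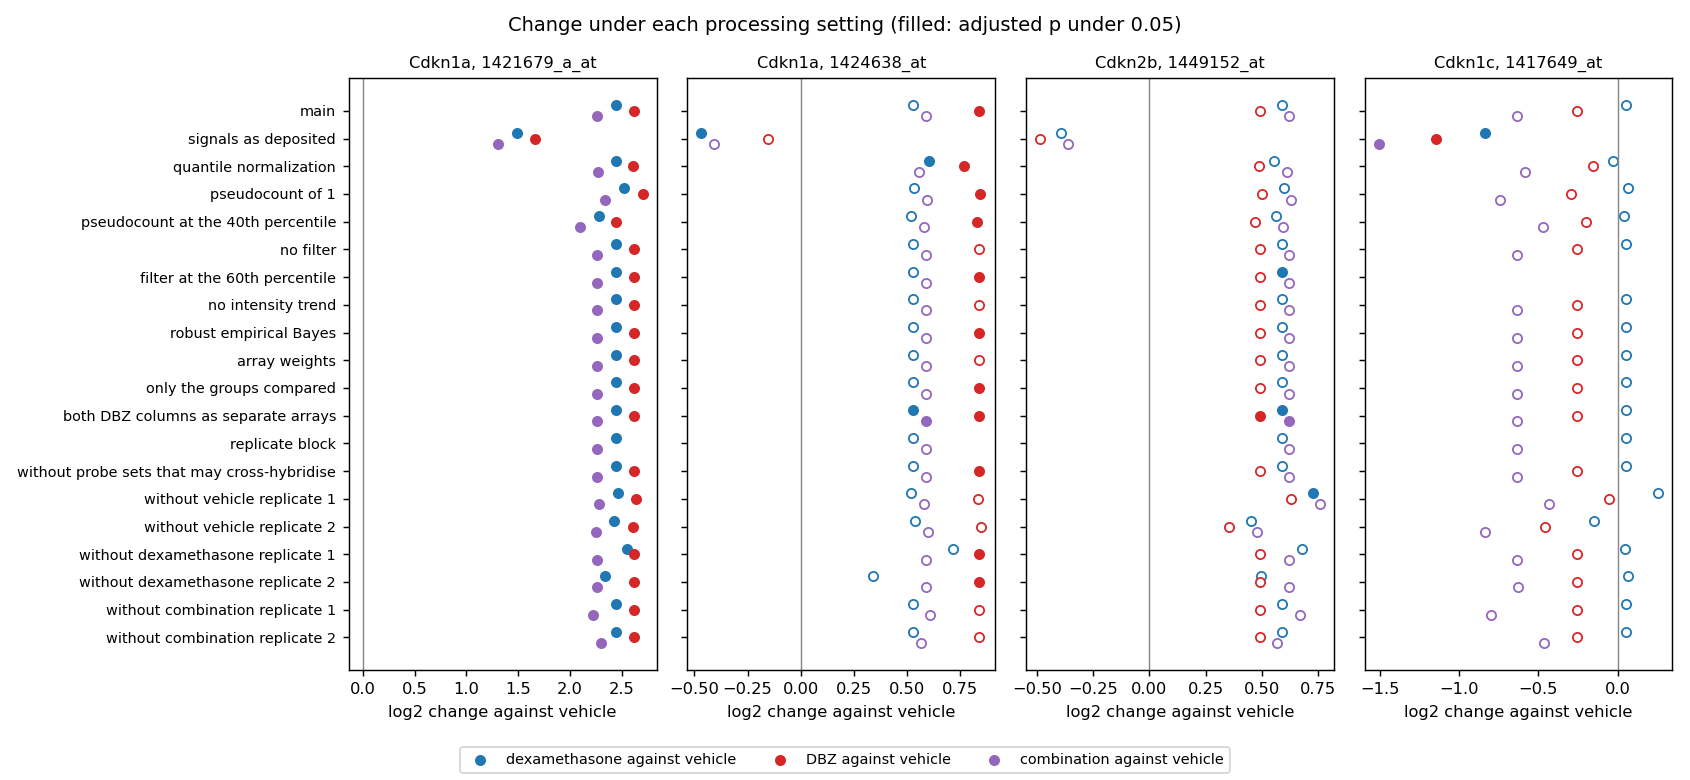
Log2 change against vehicle of Cdkn1a (both probe sets), Cdkn2b and Cdkn1c under each processing setting, with filled points where the adjusted p was under 0.05 and no point where a setting could give no value. Cdkn1a 1421679_a_at stays filled throughout, between 1.31 and 2.70, while Cdkn1a 1424638_at and Cdkn2b turn below zero with the signals as deposited.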

How the data were processed

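Total RNA of small intestine was hybridised to Affymetrix arrays, and the deposited values are intensities computed with MAS5, per the submitters' processing notes. The 8 deposited intensity columns were reduced to 7 arrays, so the planned 2 DBZ arrays could not be kept. Signals were rescaled so that every array had a trimmed mean (2% at each end) of 250, and 12.3, the 20th percentile of all arrays together, was added before log2. Dim probe sets (average below 38.8, the 40th percentile) and 64 controls were dropped, which kept 13638. limma 3.58.1 in R 4.3.3 fitted 4 group means with an intensity trend and 3 residual degrees of freedom, and p-values were adjusted over the 13638 by the Benjamini-Hochberg method, with a threshold of 0.05. The fit and its adjusted test were tried on simulated log2 values. The rescaling, the value added before log2 and the filter were not tried in that way. The number of arrays limits precision.

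Probe sets were named from the platform annotation, in which 20393 have 1 symbol, 691 several and 1606 none, and a gene in a list was represented by its probe set of highest mean signal. All inhibitor probe sets were named. From each list and comparison up to 3 genes past the threshold were named. Where none passed, the gene with the smallest p was not named in every case. A short list of regulators was added, and the 3 genes with the highest correlation to an inhibitor. The members and lists were chosen with earlier results of these data known. The labels do not state that replicate numbers pair animals, so no block was used. Same-numbered arrays did not deviate together (correlations 0.05, -0.12 and 0.11). Alternatives covered scaling, pseudocount, filter, trend, robust and weighted fits, the samples fitted and the replicate block. Each vehicle, dexamethasone and combination array was also left out in turn, but never the single DBZ array.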

Additional observations from a re-analysis of the deposited data

Results flagged for a closer look

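The interaction of Cdkn1a 1421679_a_at was -2.80 on the log2 scale, with a standard error of 0.26 and a limma adjusted p of 0.00127. It stands out because the change that dexamethasone gave differed, by a test of the difference itself, between mice without DBZ, where the rise was 2.44, and mice with DBZ, where the change was -0.36. It rests on 1 DBZ array and on the vehicle arrays, whose ileal, proximal, wall, T cell and enteroendocrine marker sums differed from those of all treated arrays, and the part of those differences was not tested.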

How the results depend on the processing

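Cdkn1a 1421679_a_at kept its direction and its call under every alternative that gave a value, with a log2 change of 1.49 to 2.55 for dexamethasone, 1.66 to 2.70 for DBZ, 1.31 to 2.34 for the combination and -2.91 to -1.84 for the interaction. With the signals as deposited, called inhibitor probe sets numbered 6, 4, 5 and 2 (dexamethasone, DBZ, combination, interaction) instead of 1, 2, 1 and 1, and 75.0%, 68.6%, 79.7% and 47.4% of all probe sets were called, with an interaction median of 0.94. Signs then turned with dexamethasone for Cdkn1a 1424638_at (-0.47), Cdkn1b (-0.87), Cdkn1c (-0.84), Cdkn2b (-0.39) and Cdkn2d (-0.82), with DBZ for Cdkn1a 1424638_at (-0.16), Cdkn2b (-0.49) and Cdkn2d (-0.63), with the combination for Cdkn1a 1424638_at (-0.41), Cdkn2b (-0.36) and Cdkn2d (-0.85), and in the interaction for Cdkn1a 1424638_at (0.22), Cdkn1c (0.47), Cdkn2b (0.52), Cdkn2c (0.75) and Cdkn2d (0.60), all by construction of the unequal scaling.

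With both DBZ columns as separate arrays the counts were 3, 4, 3 and 2, which treats a copied column as a replicate. Dexamethasone gave 2 calls with quantile normalization (Cdkn1a 1424638_at, 0.60, limma adjusted p = 0.0369), beside 11.9% of all probe sets called there, and 2 with the filter at the 60th percentile (Cdkn2b, 0.0455). DBZ gave 1 call with no filter, 1 with no intensity trend and 1 with array weights, Cdkn1a 1424638_at being lost. The cause was not tested. Among the settings in this paragraph, the share of all probe sets called is given for quantile normalization only. Quantile normalization turned Cdkn1c with dexamethasone (-0.0283) and, between the combination and dexamethasone, Cdkn1a 1424638_at (-0.0453) and Cdkn2d (0.11).

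Each vehicle, dexamethasone and combination array was left out in turn, but never the single DBZ array. This changed inhibitor calls with dexamethasone, where a further call came without vehicle replicate 1, and with DBZ, where a call was lost. Signs turned within -0.0413 to 0.21 for Cdkn1b, -0.15 to 0.26 for Cdkn1c and -0.20 to 0.0618 for Cdkn2c with dexamethasone, -0.0230 to 0.15 for Cdkn2d with the combination, -0.13 to 0.25 for Cdkn1a 1424638_at, -0.0601 to 0.12 for Cdkn2b and -0.12 to 0.0574 for Cdkn2d between combination and dexamethasone, and -0.0110 to 0.24 for Cdkn1b in the interaction. The replicate block gave 1, 1 and 0 called inhibitor probe sets for dexamethasone, the combination and their difference, the counts without it. It could not be fitted where the DBZ array enters. Both pseudocount alternatives, the robust fit, the fit of the compared groups alone and the fit without probe sets that may cross-hybridise changed no call of an inhibitor.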
